A study of Mus musculus with 18 samples.

Results

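9 genes of the Hedgehog pathway were followed in cultured mouse cumulus cells: the ligands Ihh and Dhh, the receptor Ptch1, the signal transducer Smo, the cytoplasmic inhibitor Sufu, the ligand-binding inhibitor Hhip, and the transcription factors Gli1, Gli2 and Gli3. They were chosen by symbol, with earlier results of these data known. Every probe set that the platform annotation assigns to exactly 1 of these symbols was kept, which gave 22 of 45037 probe sets and 9 of 18193 genes. Of these, 17 probe sets of 8 genes lay above the array median on at least 3 of the 18 arrays and were tested. The 4 probe sets of Hhip did not.

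The study measured cumulus cells, a granulosa cell type that lies around the oocyte in the antral follicles of female mice, after culture in 6 groups of 3 samples. Intact cumulus-oocyte complexes (COC) kept their oocyte, oocyte-free complexes (OOX) had it taken out, and cocultures held oocyte-free complexes together with added oocytes (OOX + oocytes). Each was cultured without and with estrogen (E2 in the labels). The question was how oocytes and estrogen act together on cumulus cell transcripts. All samples are bulk RNA of the cumulus compartment, amplified in successive rounds before hybridisation. Strain, age, culture time and estrogen dose are not given in the sources used here, and the labels do not tell whether replicates are separate animals, cultures or repeat preparations. The p-values therefore cover only the spread between the arrays at hand, which may be technical. In bulk RNA, fewer cells expressing a gene and less RNA per cell cannot be told apart.

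In Hedgehog signalling a secreted ligand binds Ptch1, which otherwise holds Smo inactive. Active Smo, acting in the primary cilium, releases the Gli factors from Sufu, and Gli2 and Gli3 then switch on or stop repressing target genes. Gli1, Ptch1 and Hhip are themselves targets, so their transcripts are widely used as a readout of pathway activity. In the ovary, granulosa cells of growing follicles are known to make Ihh and Dhh, and the surrounding theca and stroma are the best known responding cells.

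The sequences just before the gene starts are shown for both ligands, whose transcripts moved together when oocytes were removed or added, and for Ptch1, the receptor and target whose pattern differed from theirs. They are the 250 bases before the start on the gene's strand, from RefSeq (GRCm38.p6), 5′ to 3′, and capitals mark the letters CCACCC or, for the other strand, GGGTGG, the core of the motif that Gli factors bind. The Ihh stretch lies at chr1:74951673-74951922 on the minus strand, the Dhh stretch at chr15:98898541-98898790 on the minus strand and the Ptch1 stretch at chr13:63565736-63565985 on the minus strand.
Ihh: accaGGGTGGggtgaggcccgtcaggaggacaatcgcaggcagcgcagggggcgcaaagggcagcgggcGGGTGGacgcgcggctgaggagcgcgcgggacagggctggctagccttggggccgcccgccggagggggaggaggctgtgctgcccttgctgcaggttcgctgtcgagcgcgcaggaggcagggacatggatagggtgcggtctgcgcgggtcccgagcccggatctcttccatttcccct
Dhh: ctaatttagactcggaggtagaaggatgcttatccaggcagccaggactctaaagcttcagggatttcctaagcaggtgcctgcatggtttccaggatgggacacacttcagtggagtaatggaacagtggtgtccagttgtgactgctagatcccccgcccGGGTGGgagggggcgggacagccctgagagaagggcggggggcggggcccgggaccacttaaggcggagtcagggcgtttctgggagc
Ptch1: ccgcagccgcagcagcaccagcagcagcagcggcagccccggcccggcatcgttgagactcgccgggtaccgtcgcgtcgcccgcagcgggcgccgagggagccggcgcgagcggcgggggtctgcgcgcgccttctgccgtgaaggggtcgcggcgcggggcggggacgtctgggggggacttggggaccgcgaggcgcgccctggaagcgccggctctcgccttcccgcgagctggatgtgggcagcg
The Ihh stretch held 2 core matches, the Dhh stretch 1 and the Ptch1 stretch 0. RefSeq entries matched 8 of the 9 members, with Gli1 not among them. In windows from 250 bases before to 50 after the start, searched on both strands, 6 of the 8 members held CCACCC, against 31.5% of all 32851 promoters. The longer consensus GACCACCCA, which contains the core, was in 0 of 8 and in 0.253% of all promoters. The estrogen response element GGTCANNNTGACC was in 0 of 8, against 0.07%, and the nuclear receptor half-site AGGTCA in 0 of 8, against 16.3%. The member windows were rich in G and C, with 72.7% for Ihh, 61.7% for Dhh and 76.3% for Ptch1 against a median of 52.7% over all promoters, and a short motif rich in C is met more often in such windows. These matches describe letters only, and a missing match says nothing about a factor outside the window.

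Values are log2 RMA values, so a difference of 1 is a 2-fold change. A gene is said to have risen or fallen where limma's adjusted p (Benjamini-Hochberg over all 25370 tested probe sets) was under 0.05, and each log2 change is given ± its standard error (SE) with 3 arrays per group. The SE comes from 1 fit over all 6 groups. Each gene is given by its brightest probe set, with the others named where they differ. Array medians lay between 5.51 and 5.71. One array stood apart from the rest: the interquartile range was 2.53 on oocyte-free replicate 3 without estrogen, and 2.69 to 3.05 on the other arrays. The title of oocyte-free replicate 1 with estrogen conflicts with its source name, which gives no estrogen, and the title was followed. The array names fall into 3 series of 13, 2 and 3 arrays. All oocyte-free arrays without estrogen lie outside the first series and all intact arrays inside it, so the array series and removal without estrogen cannot be told apart within a series. Other comparisons that use these oocyte-free arrays are mixed with the series in part. They are added oocytes without estrogen, estrogen in oocyte-free complexes and the interaction terms.

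The values of all 9 genes on each array are plotted by group.

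**Figure D1:**
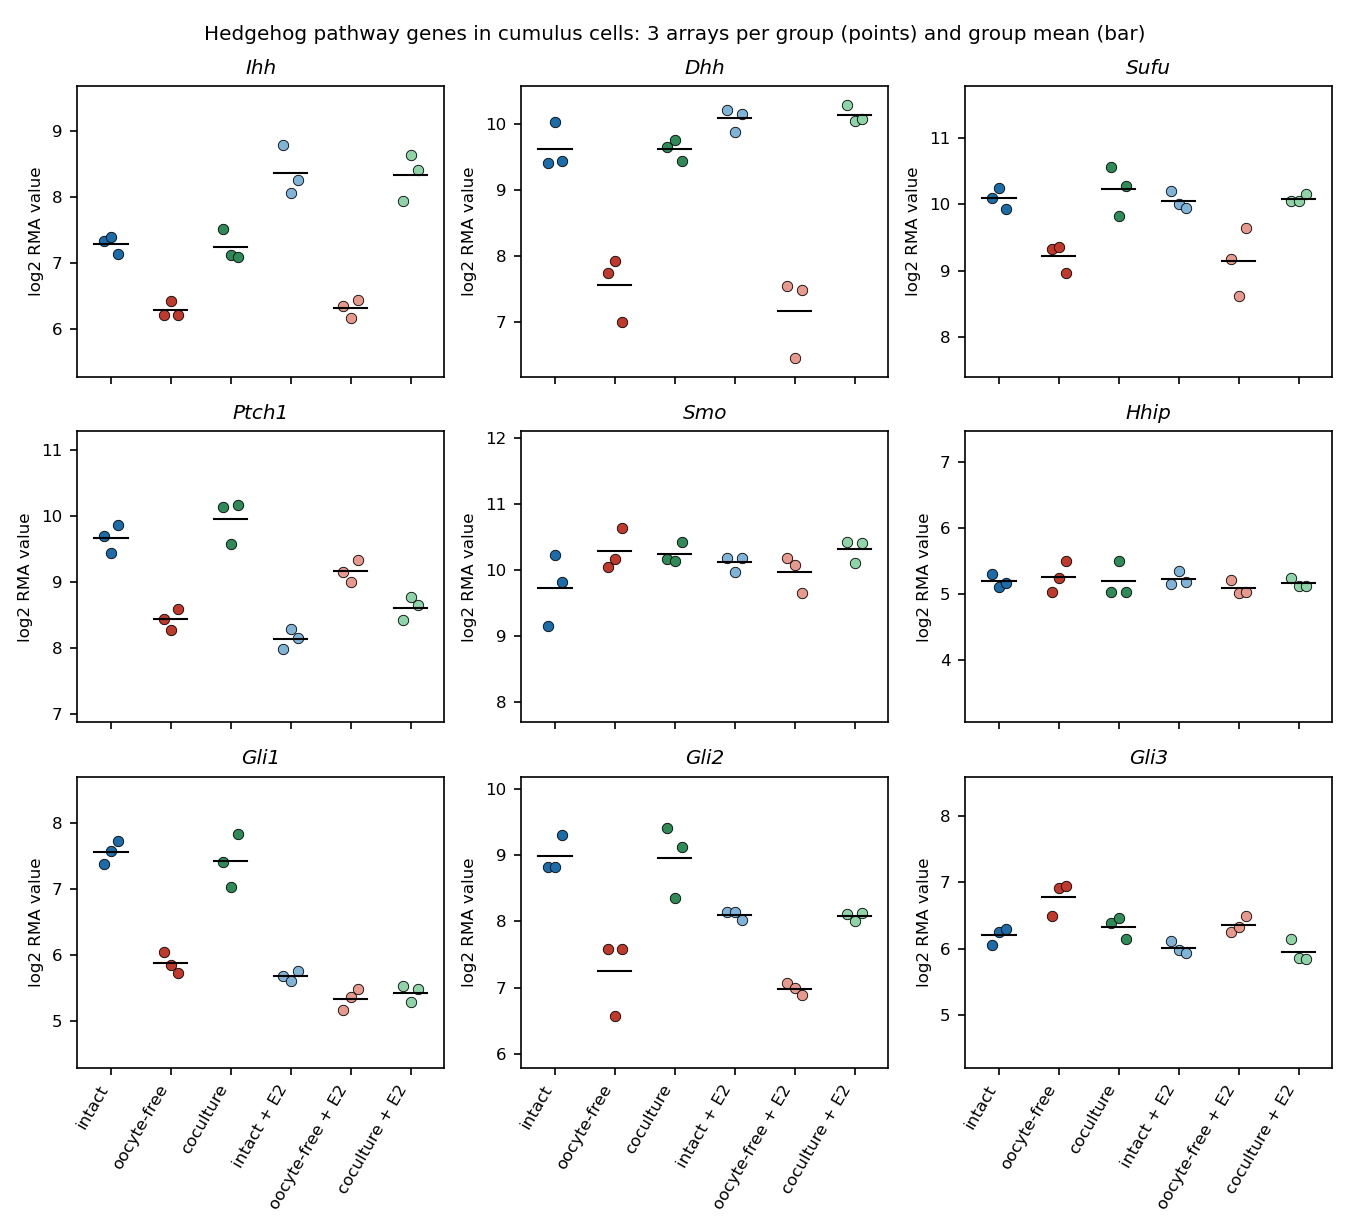
Log2 RMA value (y axis, the same span in every panel) of the brightest probe set of each gene on the 18 arrays, by group (x axis, E2 is estrogen); points are arrays and bars group means. Both ligands are low in the 2 oocyte-free groups, while Gli1 is high only in the 2 groups with oocytes and no estrogen, and Ptch1 is at 8.44 in oocyte-free cells without estrogen and 9.17 with it.

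Both ligands were lower where the oocyte had been removed. Without estrogen Ihh, which encodes Indian hedgehog, read 7.33, 7.39 and 7.13 in intact complexes, 6.22, 6.42 and 6.21 in oocyte-free complexes, and 7.51, 7.12 and 7.09 in cocultures. With estrogen it read 8.78, 8.05 and 8.25 in intact complexes, 6.35, 6.17 and 6.44 in oocyte-free complexes, and 7.94, 8.63 and 8.40 in cocultures. The oocyte-free arrays lay below every array with oocytes, in both media, and the arrays with both oocytes and estrogen lay above all others. Ihh fell by 1.00 ± 0.201 on oocyte removal without estrogen (2.0-fold, adjusted p = 0.00111) and by 2.04 ± 0.201 with it (4.11-fold, adjusted p = 1.44e-06). Added oocytes raised it by 0.96 ± 0.201 without (adjusted p = 0.00196) and 2.00 ± 0.201 with estrogen (adjusted p = 2.33e-06). The removal and addition comparisons share the oocyte-free arrays.

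Dhh, which encodes desert hedgehog, read 9.41, 10.02 and 9.43 in intact complexes without estrogen, 7.74, 7.93 and 7.00 in oocyte-free complexes, and 9.65, 9.76 and 9.43 in cocultures. With estrogen the values were 10.21, 9.88 and 10.15, then 7.55, 6.46 and 7.48, then 10.28, 10.04 and 10.07. No oocyte-free array reached the lowest array with oocytes in either medium. Dhh fell by 2.06 ± 0.276 on removal without estrogen (4.18-fold, adjusted p = 2.92e-05) and by 2.92 ± 0.276 with it (7.55-fold, adjusted p = 9.76e-07), and rose by 2.06 ± 0.276 and 2.97 ± 0.276 with added oocytes (adjusted p = 3.84e-05 and 1.13e-06). A dim second Dhh probe set, above the array median on 3 arrays, was called with estrogen only, at -0.69 on removal (adjusted p = 0.00755), against -0.18 without (adjusted p = 0.459). Its estrogen-by-removal term was -0.51 ± 0.247 and was not called (adjusted p = 0.436).

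Over the 8 tested genes, oocyte removal without estrogen called 7, 6 lower and 1 higher, where 37.0% of all 12252 tested genes were called. The median change was -1.11, against 0.01 over all genes. With estrogen removal called 5 of 8, 4 lower and 1 higher (28.2% of all genes), with a median of -0.62 against -0.05. Added oocytes called 7 of 8 without estrogen (31.5% of all genes) and 5 of 8 with it (22.6% of all genes). Because the members were chosen with earlier results of these data known, these counts beside all genes are descriptive and test nothing. Coculture differed from intact complexes in 0 of 8 members without and 0 of 8 with estrogen, as in 0.0% and 0.0% of all genes. At an unadjusted limma p under 0.05 these 2 comparisons held 710 and 328 genes, 1 member in each: Smo, at 0.51 ± 0.232, and Ptch1, at 0.47 ± 0.178.

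The removal results were also read without the 2 arrays in doubt, oocyte-free replicate 3 without estrogen and the array of conflicting labels. Ihh then fell by 0.96 without and by 2.06 with estrogen, Dhh fell by 1.78 and by 3.11, and Gli2 fell by 1.91 and by 1.16. Without estrogen Ptch1 fell by 1.30, Gli1 fell by 1.61 and Sufu fell by 0.75. Each of these passed the threshold, with adjusted p-values of limma up to 0.0359, that of Sufu. With a term for the array series, removal without estrogen gave -1.03 for Ihh (adjusted p = 0.0271), -2.52 for Dhh (adjusted p = 0.000217), -1.08 for Ptch1 (adjusted p = 0.00967) and -1.56 for Gli1 (adjusted p = 0.000245). That term rests on few arrays. Besides oocyte-free arrays without estrogen, the second series holds 1 coculture array and the third 1 oocyte-free array with estrogen. It also takes a series to shift all groups alike, which was not tested. With estrogen, where the first series holds 2 oocyte-free and 3 intact arrays, that series alone gave -2.10 for Ihh, -3.08 for Dhh and 0.93 for Ptch1, all called. These 2 oocyte-free arrays include the array of conflicting labels.

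**Figure D2:**
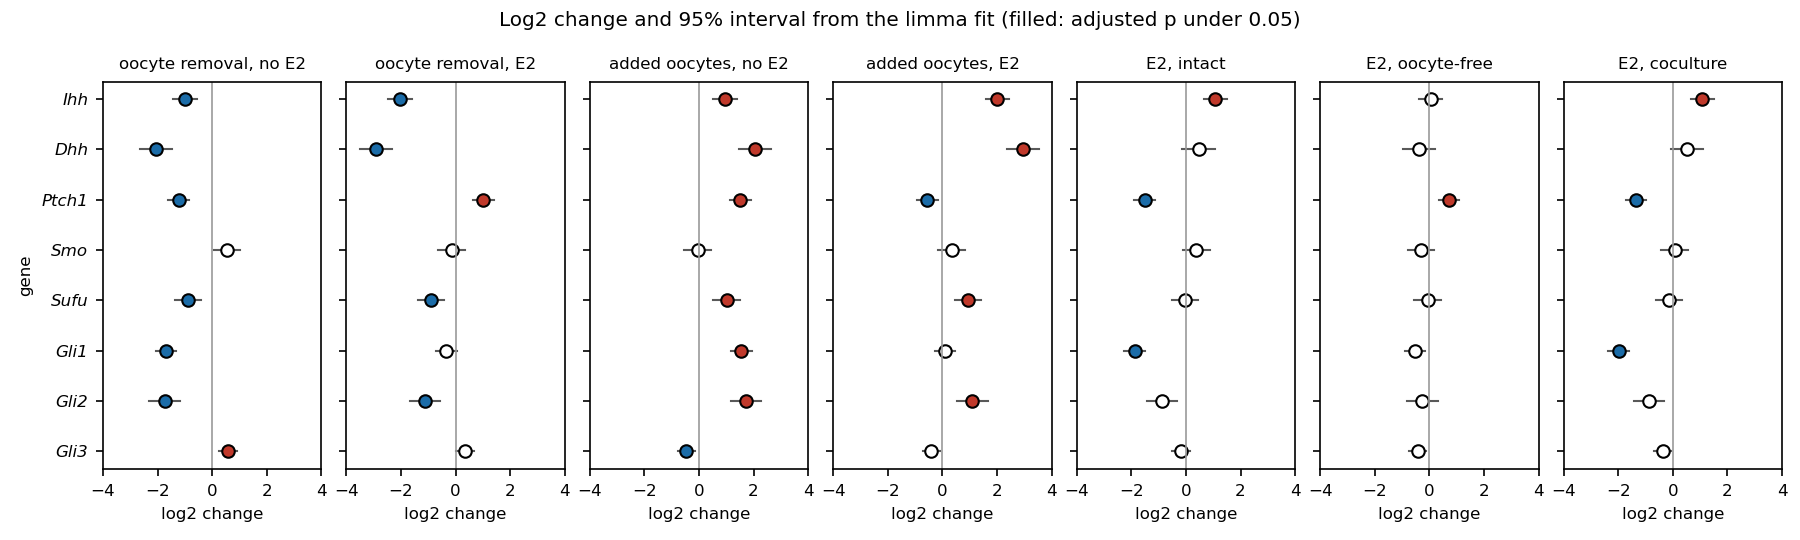
Log2 change (x axis) of the brightest probe set of the 8 tested genes (rows) in 7 comparisons (panels); lines are 95% intervals from the limma fit, and filled points have an adjusted p under 0.05, red higher and blue lower. Ptch1 lies at -1.22 on removal without estrogen and at 1.02 with it, and Gli1 at -1.68 and -0.34, while Ihh and Dhh lie below 0 in both.

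Estrogen raised Ihh where oocytes were present. In intact complexes Ihh rose by 1.08 ± 0.201 (2.11-fold, adjusted p = 0.00467) and in cocultures by 1.08 ± 0.201 (2.12-fold, adjusted p = 0.00451). In oocyte-free complexes the estrogen difference was 0.04, with a 95% interval from -0.39 to 0.46 (adjusted p = 0.928). The estrogen-by-removal term, the estrogen change in oocyte-free minus that in intact complexes, was -1.04 ± 0.284 and missed the threshold (adjusted p = 0.0802), as did the term for added oocytes at 1.05 ± 0.284 (adjusted p = 0.0816). An estrogen effect limited to cells with oocytes was therefore not shown for Ihh. Dhh was not called for estrogen in any culture, with 0.46 in intact complexes (95% interval -0.13 to 1.05), -0.39 in oocyte-free complexes (-0.98 to 0.19) and 0.52 in cocultures (-0.07 to 1.10).

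Among the members, the target genes Gli1 and Ptch1 were not called in the ligands' direction on removal or addition with estrogen. Gli1, the factor whose own transcription is the most direct target of the pathway, read 7.38, 7.57 and 7.72 in intact complexes without estrogen, 6.05, 5.84 and 5.73 in oocyte-free complexes, and 7.41, 7.03 and 7.83 in cocultures. With estrogen it read 5.68, 5.60 and 5.75, then 5.16, 5.37 and 5.48, then 5.53, 5.28 and 5.48. The 6 arrays with oocytes and no estrogen stood alone at the top. The 9 estrogen arrays, at 5.16 to 5.75, lay near their array medians, where RMA understates folds. The oocyte-free arrays without estrogen also lay near their medians of 5.55, 5.57 and 5.71. Gli1 fell by 1.68 ± 0.177 on removal without estrogen (3.21-fold, adjusted p = 2.37e-06) and rose by 1.55 ± 0.177 with added oocytes (adjusted p = 7.5e-06). With estrogen the same comparisons gave -0.34 (95% interval -0.72 to 0.04, adjusted p = 0.182) and 0.09 (-0.28 to 0.47, adjusted p = 0.779). The intact and oocyte-free arrays with estrogen did not overlap, the latter being lower as for the ligands. With array weights in limma this removal difference was called (-0.43, adjusted p = 0.0419).

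Estrogen lowered Gli1 by 1.88 ± 0.177 in intact complexes (3.68-fold, adjusted p = 7.71e-06) and by 1.99 ± 0.177 in cocultures (3.98-fold, adjusted p = 4.73e-06). In oocyte-free complexes the difference was -0.54 (95% interval -0.91 to -0.16, adjusted p = 0.0817), with no overlap between the groups. The estrogen change differed between culture types: the term was 1.34 ± 0.251 for removal (adjusted p = 0.00746) and -1.46 ± 0.251 for added oocytes (adjusted p = 0.00501). Without both arrays in doubt these terms were 1.36 (adjusted p = 0.0212) and -1.47 (adjusted p = 0.0148).

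Ptch1, which binds the ligands and is a target as well, read 9.69, 9.44 and 9.86 in intact complexes without estrogen, 8.44, 8.28 and 8.60 in oocyte-free complexes, and 10.14, 9.57 and 10.17 in cocultures. With estrogen it read 7.99, 8.29 and 8.16 in intact complexes, 9.16, 9.00 and 9.34 in oocyte-free complexes, and 8.42, 8.77 and 8.65 in cocultures. The oocyte-free arrays thus lay below those with oocytes without estrogen and above them with it, with no overlap in either medium. Ptch1 fell by 1.22 ± 0.178 on removal without estrogen (2.33-fold, adjusted p = 6.56e-05) and rose by 1.02 ± 0.178 on removal with estrogen (2.03-fold, adjusted p = 0.000461). Added oocytes raised it by 1.52 ± 0.178 without estrogen (2.87-fold, adjusted p = 9.5e-06) and lowered it by 0.55 ± 0.178 with it (adjusted p = 0.0378), a call that was lost in several alternatives, among them the first array series alone (-0.47, adjusted p = 0.0548).

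By estrogen, Ptch1 fell by 1.52 ± 0.178 in intact complexes (2.86-fold, adjusted p = 7.51e-05) and by 1.35 ± 0.178 in cocultures (2.54-fold, adjusted p = 0.000239). In oocyte-free complexes it rose by 0.73 ± 0.178 (1.65-fold, adjusted p = 0.0216). That rise passed no threshold without the array of conflicting labels (0.73, adjusted p = 0.0787), without both arrays in doubt (0.81, adjusted p = 0.0628) or with a term for the array series (0.62, adjusted p = 0.16). In the third series alone, Ptch1 read 8.44 and 8.28 on the 2 oocyte-free arrays without estrogen and 9.34 on the 1 with it. The estrogen-by-removal term was 2.24 ± 0.252 (adjusted p = 0.00014) and that for added oocytes -2.07 ± 0.252 (adjusted p = 0.000316). Without both arrays in doubt they were 2.33 (adjusted p = 0.000886) and -2.16 (adjusted p = 0.00176), and with a series term 2.13 (adjusted p = 0.0013) and -2.04 (adjusted p = 0.000813).

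Estrogen called 3 of the 8 members in intact complexes (4.47% of all genes), 1 in oocyte-free complexes (8.0%) and 3 in cocultures (4.11%). In intact complexes and cocultures these were Ihh, higher, and Ptch1 and Gli1, lower. The interaction with removal called 2 members (2.6% of all genes) and that with added oocytes 2 (2.21%), Ptch1 and Gli1 in each. The estrogen comparisons share arrays with the removal and addition comparisons. These counts, too, are of members chosen with earlier results known and are descriptive.

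**Figure D3:**
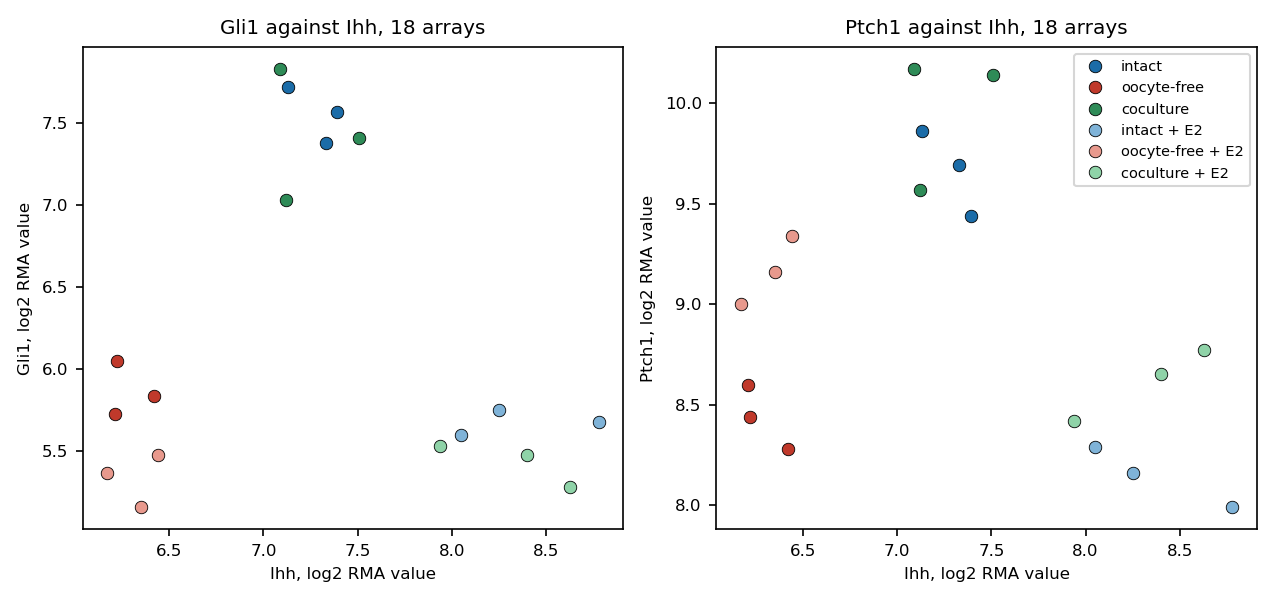
Log2 RMA values of Gli1 (left, y axis) and Ptch1 (right, y axis) against Ihh (x axis) on the 18 arrays, coloured by group. The 6 arrays with oocytes and estrogen, at Ihh 7.94 to 8.78, have Gli1 between 5.28 and 5.75, and the 6 with oocytes and no estrogen, at Ihh 7.09 to 7.51, have Gli1 between 7.03 and 7.83.

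The plot of Gli1 and Ptch1 against Ihh shows that the arrays with the highest Ihh were not those with the highest targets. From high to low, the Ihh group means were 8.36 (intact with estrogen), 8.32 (coculture with estrogen), 7.28 (intact), 7.24 (coculture), 6.32 (oocyte-free with estrogen) and 6.28 (oocyte-free). The arrays overlapped within each of these 3 neighbouring pairs and not between them. For Gli1 the order was 7.56 (intact), 7.42 (coculture), 5.87 (oocyte-free), 5.68 (intact with estrogen), 5.43 (coculture with estrogen) and 5.34 (oocyte-free with estrogen). Its first 2 groups overlapped and stood clear of the rest, oocyte-free cells without estrogen overlapped intact complexes with estrogen, and the latter did not overlap cocultures with estrogen. For Ptch1 it was 9.96 (coculture), 9.66 (intact), 9.17 (oocyte-free with estrogen), 8.61 (coculture with estrogen), 8.44 (oocyte-free) and 8.15 (intact with estrogen), and only oocyte-free cells with estrogen overlapped neither neighbour.

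Of the other Gli factors, Gli2, the main activator, fell on removal in both media. Its values were 8.83, 8.83 and 9.30 in intact complexes, 7.59, 6.57 and 7.58 in oocyte-free complexes and 9.41, 8.35 and 9.13 in cocultures without estrogen. With estrogen they were 8.15, 8.14 and 8.02, then 7.07, 6.99 and 6.89, then 8.11, 8.01 and 8.13. The oocyte-free arrays were the lowest in each medium and did not overlap those with oocytes. Gli2 fell by 1.74 ± 0.265 without (3.34-fold, adjusted p = 0.000101) and by 1.12 ± 0.265 with estrogen (2.17-fold, adjusted p = 0.00503), and added oocytes gave 1.72 and 1.10 (adjusted p = 0.000145 and 0.00729). The second Gli2 probe set was called in these 4 comparisons too, at -1.46, -0.87, 1.41 and 0.90. By estrogen Gli2 differed by -0.88 ± 0.265 in intact complexes (adjusted p = 0.0864) and -0.88 ± 0.265 in cocultures (adjusted p = 0.0965), not called, with no overlap of the arrays in either. They stayed uncalled in 26 and 27 of 34 alternatives. Both passed in the first array series alone, at -0.88 (adjusted p = 0.00288) and -1.19 (adjusted p = 0.00105). That series leaves out coculture replicate 2 without estrogen, at 8.35.

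Gli3, which acts mainly as a repressor when the pathway is off, rose on removal without estrogen. It read 6.06, 6.25 and 6.30 in intact complexes and 6.50, 6.91 and 6.95 in oocyte-free complexes without estrogen, a difference of 0.58 ± 0.151 (adjusted p = 0.00695), and fell by 0.46 ± 0.151 with added oocytes (adjusted p = 0.0325). The groups did not overlap in these 2 comparisons, but both calls were lost with a term for the array series (0.40, adjusted p = 0.203, and -0.37, adjusted p = 0.165). With estrogen the changes were 0.34 (adjusted p = 0.111) and -0.41 (adjusted p = 0.0706). A second Gli3 probe set was called in none of these comparisons and read -0.11 on removal without estrogen.

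Sufu, which holds Gli factors in the cytoplasm, fell on removal as the ligands did. It read 10.10, 10.25 and 9.93 in intact complexes, 9.32, 9.36 and 8.96 in oocyte-free complexes and 10.57, 9.83 and 10.28 in cocultures without estrogen. With estrogen it read 10.20, 10.00 and 9.95, then 9.17, 8.61 and 9.65, then 10.05, 10.05 and 10.15. Sufu was lowest on the oocyte-free arrays, without overlap, in both media. It fell by 0.88 ± 0.226 without (1.84-fold, adjusted p = 0.00664) and by 0.91 ± 0.226 with estrogen (1.87-fold, adjusted p = 0.00713), and rose by 1.01 and 0.94 with added oocytes (adjusted p = 0.00312 and 0.00725). One other Sufu probe set was called lower on both removals, at -0.74 and -0.58, and another was called in none, at -0.05 and -0.04. Estrogen differences of Sufu were small, at -0.04 in intact complexes, with a 95% interval from -0.52 to 0.44.

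Smo, the transducer that Ptch1 restrains, was not called in any comparison of the fit over 6 groups. It read 9.16, 10.23 and 9.82 in intact complexes and 10.05, 10.17 and 10.64 in oocyte-free complexes without estrogen, overlapping, at 0.55 ± 0.232 (adjusted p = 0.0806). The difference stayed uncalled in 29 of 33 alternatives, with a lowest value of 0.06. It passed the threshold without intact replicate 2 (0.80, adjusted p = 0.0167) and after a second quantile normalization (0.65, adjusted p = 0.044). It also passed with the array series as a fixed term (0.94, adjusted p = 0.0441) or a random block (0.77, adjusted p = 0.0498). The other tested Smo probe sets gave 0.27 and -0.63 on this removal, neither called. With estrogen removal gave -0.14 (95% interval -0.63 to 0.35). Hhip, which binds the ligands and is a target, read between 5.02 and 5.51 on its brightest probe set over the 18 arrays, never above the array median, so no difference is given.

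**Figure D4:**
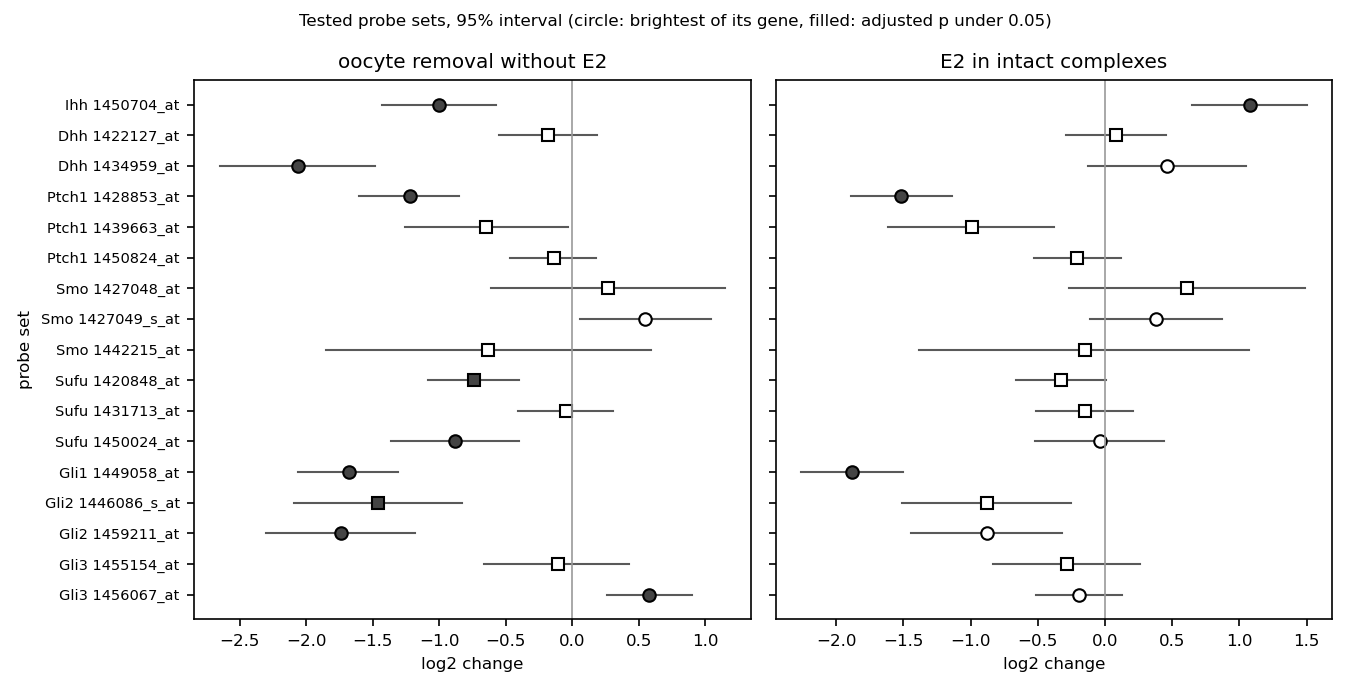
Log2 change (x axis) of the 17 tested probe sets (rows) on oocyte removal without estrogen (left) and by estrogen in intact complexes (right); lines are 95% intervals from the limma fit, circles the brightest probe set of a gene, squares the others, and filled symbols have an adjusted p under 0.05. The 2 Gli2 probe sets lie at -1.74 and -1.46 on removal, while the 3 Ptch1 probe sets lie at -1.22, -0.65 and -0.14.

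Probe sets of 1 gene did not all move. The second Ptch1 probe set differed by -0.65 on removal without estrogen (adjusted p = 0.1) and by -0.99 with estrogen in intact complexes (adjusted p = 0.0773), neither called, and its estrogen-by-removal term was 1.06 (adjusted p = 0.271). The third was called in no comparison. The Ptch1 results above therefore rest on 1 of its 3 tested probe sets. Ihh and Gli1 have 1 probe set each.

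Markers of other cells were read beside these results. Of 13 theca and stroma markers with a probe set, 6 were tested. Their mean level per array lay between 5.75 and 5.91 in intact, 6.15 and 6.38 in oocyte-free and 5.80 and 5.96 in coculture samples without estrogen, and between 5.53 and 5.62, 5.92 and 6.09, and 5.60 and 5.72 with it. This mean was higher without oocytes and, in each culture type, lower with estrogen. On removal Acta2 (smooth muscle actin) and Dcn (decorin) had the largest changes of the 6. The other 11 markers are a subset chosen after the values were seen. Their mean was 5.40 in intact, 5.65 in oocyte-free and 5.40 in coculture samples without estrogen and 5.40, 5.30 and 5.41 with it. In this subset the rise on removal with estrogen and the estrogen fall in intact complexes and cocultures were not seen. The rise on removal without estrogen and the estrogen fall in oocyte-free complexes remained. The defining theca gene Cyp17a1 and the stromal collagens Col1a1 and Col3a1 did not reach the level needed for testing. On removal 1 of the 6 was called higher and 1 lower without estrogen (37.0% of all genes called), and 3 higher and 1 lower with it (28.2%). Acta2 changed in the directions of Ptch1, at -1.91 and 2.98 on removal without and with estrogen and -3.34 by estrogen in intact complexes. Dcn rose by 4.48 and 3.39 on removal. Pdgfrb, a receptor of stromal and perivascular cells, had the opposite signs to Ptch1, with 1.24 on removal without estrogen (adjusted p = 0.0745), -1.97 with it (adjusted p = 0.00945) and an estrogen-by-removal term of -3.21 (adjusted p = 0.0274). Pdgfra (0.08 and -0.20) and Des (-0.03 and -0.05) were called on neither removal. The part of such cells in the Ptch1 and Gli1 results was not tested.

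Of 13 cumulus and granulosa markers, all 13 were tested, and removal without estrogen called 2 higher and 9 lower (37.0% of all genes called). The 2 were Foxl2, which rose by 1.03 (adjusted p = 0.000309), and Kitl, which rose by 4.59 (adjusted p = 1.45e-07). The mean level of the 13 markers was 9.80 in intact and 8.69 in oocyte-free complexes without estrogen, and 10.64 and 9.41 with it. Their mean, though not every marker, thus fell along with the ligands on removal. The part of granulosa transcripts in the ligand results was not tested. Of 14 oocyte markers 5 were tested. Removal without estrogen called 0 of the 5 higher and 1 lower (37.0% of all genes called), Bcl2l10, which fell by 3.91. Gdf9, an oocyte growth factor, differed by 0.07 (adjusted p = 0.77), and Figla, Ooep and Zar1 were not called either. Of 9 endothelial and blood cell markers 1 was tested, and it was not called.

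Other genes of the pathway were read from a longer list. Of 52 listed, 48 had a probe set and 40 were tested, and removal called 4 higher and 4 lower without estrogen and 6 higher and 4 lower with it, with medians of 0.05 and 0.03. Over all genes removal called 37.0% and 28.2%. Added oocytes called 5 higher and 4 lower without and 4 higher and 4 lower with estrogen, against 31.5% and 22.6% of all genes. These shares were near or below those of all genes. Estrogen called 2 higher in intact, 2 higher in oocyte-free and 1 higher in coculture samples, and 0 lower in each. Over all genes it called 4.47%, 8.0% and 4.11%. Shh, the third ligand, was not bright enough to be tested. Among 4 tested co-receptors, Boc and Gas1, which help present the ligand to Ptch1, rose on removal with estrogen by 0.76 ± 0.156 (adjusted p = 0.00166) and 0.75 ± 0.221 (adjusted p = 0.0195).

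Among 12 ciliary regulators, Evc2, which carries the Smo signal at the cilium, fell by 1.97 ± 0.129 without and by 2.03 ± 0.129 with estrogen on removal (adjusted p = 1.47e-08 and 1.58e-08). Gpr161, a ciliary receptor that restrains the pathway, rose by 1.21 ± 0.332 without estrogen (adjusted p = 0.0102), and Ift88, a transport protein of the cilium, fell by 0.52 ± 0.181 with it (adjusted p = 0.0467). Among 14 kinases and degradation factors, which mark Gli proteins for processing or bind Smo, 3 rose and 1 fell on removal without estrogen and 3 rose with it. Both shares were below the 37.0% and 28.2% of all genes called. Csnk1d rose by 0.86 without and by 0.63 with estrogen, and Prkar1a by 0.63 and 0.77. Arrb1 rose by 0.95 without estrogen and differed by 0.44 with it (adjusted p = 0.235), and Spop rose by 0.67 with estrogen and differed by 0.42 without (adjusted p = 0.0916). The fall was that of Cul3, by 0.57 without estrogen (adjusted p = 0.0261). Among 6 tested targets outside the pathway, removal called 2 lower without estrogen (37.0% of all genes called), and 2 lower and 1 higher with it (28.2%). Ccnd1, Bcl2 and Foxf1 were called on neither removal. The cell cycle gene Ccnd2 fell by 5.14 ± 0.201 without estrogen (adjusted p = 5.83e-11) and by 4.5 ± 0.201 with it (adjusted p = 4.57e-10). The growth regulator Mycn fell by 3.06 ± 0.306 (adjusted p = 1.3e-06) and by 1.02 ± 0.306 (adjusted p = 0.0217). With estrogen, added oocytes raised Ccnd2 by 4.57 and Mycn by 1.41, so both moved in the direction of the ligands. Nr2f2 rose by 0.96 ± 0.193 on removal with estrogen (adjusted p = 0.00148). By estrogen Mycn rose by 1.32 in intact complexes (adjusted p = 0.022), by 3.36 in oocyte-free complexes (adjusted p = 6.14e-06) and by 1.82 in cocultures (adjusted p = 0.0021), with an estrogen-by-removal term of 2.04 (adjusted p = 0.018). All these genes answer to other signals too.

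The genes whose values were most like those of single members were found by Pearson's r over the 18 arrays among 12251 other tested genes. The arrays form 6 groups, so r mostly reflects group means. For Gli1 they were Cspg4 (r = 0.963), Hspb1 (0.947) and Shisa9 (0.941). Cspg4, a proteoglycan of the cell surface, averaged 9.36 in intact, 7.09 in oocyte-free and 9.19 in coculture samples without estrogen and 6.20, 5.91 and 6.19 with it. For Ptch1 they were Mylk (0.9), Acta2 (0.894) and Slc38a4 (0.891), Mylk being a kinase of contractile cells. For Ihh they were Mfsd2a (0.974), Phyh (0.957) and Inhbb (0.951). Inhbb, an activin and inhibin subunit made by granulosa cells, averaged 10.33, 5.66 and 10.28 without estrogen and 12.69, 6.35 and 12.56 with it.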

How the data were processed

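Each of the 18 samples of cumulus cell RNA was hybridised to 1 Affymetrix mouse expression array. The authors deposited log2 values. RMA and Affymetrix Expression Console (version 1.1) are the tools named by the submitters' processing notes. RMA includes quantile normalization, so a shift of most transcripts would not show, and it compresses dim values. Scanner files and detection calls were not used here, and the number of arrays limits the precision. Groups follow the sample titles.

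Symbols came from the platform annotation, updated with RefSeq (GRCm38.p6). Probe sets above the array median on at least 3 arrays entered lmFit and eBayes of limma (version 3.58.1, R version 4.3.3), with 6 group means in 1 fit and 11 contrasts, and checked on simulated data. A gene is its probe set with the highest mean. Tests are two-sided. Named genes were all members, up to 4 called genes per pathway role with the largest change on removal, and the 3 genes most correlated with Gli1, Ptch1 and Ihh. The members and lists were chosen with earlier results of these data known.

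Title numbers were taken as rounds (1 to 6, 7 to 12, 13 to 18). Over 9 comparisons, same-round samples' deviations correlated between -0.498 and 0.497, and all 3 pairs were over 0.1 in 1 comparison, coculture against intact complexes with estrogen, so rounds were used as a block only as an alternative. Other alternatives changed the probe set filter, scaling, variance model, groups fitted, array series and arrays left out. Leaving out the 2 arrays in doubt together was chosen after seeing the data.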

Additional observations from a re-analysis of the deposited data

Results flagged for a closer look

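The estrogen change differed between culture types, by the interaction term of the limma fit, for 2 of the 8 tested Hedgehog genes. For Ptch1 the estrogen change in oocyte-free complexes was higher by 2.24 (log2) than in intact complexes, and the change in cocultures differed by -2.07 from that in oocyte-free complexes. For Gli1 the same terms were 1.34 and -1.46. Both terms use the oocyte-free arrays, so they are not independent of each other. Those without estrogen all lie outside the first array series, so both terms are mixed with the series in part. The estrogen changes themselves were -1.52, 0.73 and -1.35 for Ptch1 and -1.88, -0.54 and -1.99 for Gli1, in intact, oocyte-free and coculture samples. Gli1 lay near the array median on all estrogen arrays and on the oocyte-free arrays without estrogen. An estrogen fall in oocyte-free complexes may therefore be understated, and its part in the Gli1 terms was not tested.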

How the results depend on the processing

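Of 35 called member results, 31 kept their direction and call in every alternative with a value, and 0 of 1169 values reversed. The 4 exceptions were Ptch1 with added oocytes and estrogen, Ptch1 by estrogen in oocyte-free complexes, and Gli3 on removal and with added oocytes without estrogen, which together lost the call in 34 cases. Of 1772 alternative values of uncalled results, 34 became called.

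Estrogen in oocyte-free complexes called 1 member, and 0 with a second quantile normalization, the groups of the contrast alone, the array series as a term or as a random block, without the array of conflicting labels, with it placed by its source name, or without both arrays in doubt, against 3 with array weights. Array weights also raised the interaction with added oocytes from 2 to 4 members. Leaving out 1 array gave 7 to 8 members for removal without and 5 to 5 with estrogen, 6 to 7 and 4 to 6 for added oocytes, 0 to 0 for coculture against intact in both media, 3 to 4, 0 to 2 and 3 to 4 for estrogen in intact, oocyte-free and coculture samples, and 2 to 2 and 2 to 3 for the interactions. With the replicate block, no count of members called changed: removal without estrogen called 7 and Ptch1 differed by -1.22 (adjusted p = 7.35e-05). The first array series alone gave no value for oocyte-free complexes without estrogen, which it does not hold. Dim probe sets limit what can be said of Hhip, Gli3 and of Gli1 with estrogen or without oocytes.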
